A study of Mus musculus with 2 samples.

Results

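miR-155, miR-146a, miR-146b and miR-147 are miRNAs known for their induction by inflammatory signals, and they were followed here in fibro-adipogenic progenitors (FAPs), the mesenchymal progenitors of skeletal muscle that can become adipocytes or fibroblasts. Every row of the authors' table of mature miRNAs that carries 1 of these 4 names was taken, whichever arm of the hairpin it comes from. This gave 6 of the 628 listed miRNAs: mmu-miR-155-5p, mmu-miR-155-3p, mmu-miR-146b-5p, mmu-miR-146b-3p, mmu-miR-146a-5p and mmu-miR-147-3p, written below without the prefix for mouse. The FAPs had been sorted as Sca1+ cells from skeletal muscle of wild-type C57Bl/6 mice and grown to about 80% confluence in DMEM that held 5 ng/ml FGF, 10% HS and 20% FBS. For the next 24 h, cells were kept either in basal medium (BM), which is DMEM with 10% HS, or in adipogenic differentiation medium (ADM), and 1 small RNA library was sequenced from each medium. The composition of ADM, the number and age of the mice and the purity of the sort are stated in none of the sources used here, and no sorting marker other than Sca1, which other cells of muscle also carry, is named.

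A miRNA hairpin is cut into a short duplex, and usually 1 of its 2 arms is kept in the silencing complex, where the seed (bases 2 to 8) pairs with messenger RNAs and lowers their output. miR-155 and miR-146 are best known from macrophages and lymphocytes, in which Toll-like receptor and NF-kB signalling switches on their primary transcripts. miR-146 is known to damp that same signalling by targeting adaptor proteins of the pathway, whereas miR-155 is known to target inhibitors of cytokine and phosphoinositide signalling. Of the adipogenic regulators, C/EBP-beta is a reported target of miR-155 in mouse preadipocytes.

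The mature sequences are shown first because they decide which of these miRNAs share targets and which can be mistaken for each other in read mapping. RefSeq (GRCm38.p6) holds a mature sequence for 5 of the 6 rows; miR-147-3p is named only. Capitals mark the seed, and sequences run 5′ to 3′.
miR-155-5p: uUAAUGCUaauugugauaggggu
miR-146a-5p: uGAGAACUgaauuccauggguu
miR-146b-5p: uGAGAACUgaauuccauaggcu
miR-155-3p: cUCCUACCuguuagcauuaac
miR-146b-3p: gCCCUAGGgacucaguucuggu
miR-146a-5p and miR-146b-5p have the same seed and are identical at 20 of 22 bases. Counted from 1 at the 5′ end of miR-146a-5p, they differ by G18A and U21C. No other RefSeq mature miRNA of the mouse has this seed, and none other than miR-155-5p has the seed of miR-155-5p. Against 1678 other mature sequences, the nearest to miR-155-5p (miR-26b-5p) was 8 single-base edits away, while the nearest to miR-146b-5p, its paralogue, was 2 edits away.

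In the hairpins of the abundant members, shown because both arms were counted, capitals mark the mature arms.
Mir155: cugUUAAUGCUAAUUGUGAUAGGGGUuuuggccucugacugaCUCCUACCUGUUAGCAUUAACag
Mir146b: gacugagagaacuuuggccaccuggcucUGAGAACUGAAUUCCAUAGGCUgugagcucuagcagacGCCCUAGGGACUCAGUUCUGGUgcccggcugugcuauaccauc
Mir155 lies at chr16:84714140-84714204 on the plus strand, in an exon of the long noncoding RNA gene Mir155hg (GENCODE M21, GRCm38). Mir146b lies at chr19:46342762-46342870 on the plus strand, in an intron of the protein-coding gene Mfsd13a, 1641 bp after its annotated start. The hairpin of miR-146a, Mir146, lies at chr11:43374397-43374461 on the minus strand and overlaps no other annotated gene. Mir147 lies at chr2:122640803-122640881 on the plus strand, in an untranslated exon stretch of the protein-coding gene AA467197. The 4 hairpins are thus on 4 chromosomes and share no cluster.

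What the seeds pair with can be read in 3′ untranslated regions of known targets. In each, capitals mark the complement of the seed, AGCATTA for miR-155-5p and AGTTCTC for miR-146, searched on the sense strand of the transcript with the longest such region per gene (GENCODE M21, GRCm38).
Cebpb, chr2:167690352-167690373, plus strand: ccttttccgtttcgAGCATTAa
Socs1, chr16:10784206-10784227, minus strand: tgccgctgtgccgcAGCATTAa
Inpp5d, chr1:87719824-87719845, plus strand: agatgtttttaaaaAGCATTAa
Traf6, chr2:101697945-101697966, plus strand: ccgctctggtgttgAGTTCTCa
Irak1, chrX:74015393-74015414, minus strand: gactcagaggtcaaAGTTCTCa
Cebpb encodes C/EBP-beta, an early transcription factor of adipogenesis. Socs1 encodes an inhibitor of cytokine signalling, and Inpp5d the phosphatase SHIP1. Traf6 and Irak1 encode adaptor and kinase components of Toll-like receptor signalling, whose targeting by miR-146 was shown in human cells. The first 3 genes hold 1 match each, Traf6 holds 4 and Irak1 holds 2, of which the one nearest the stop codon is printed. Over 21020 genes with such a region, of any length, 8.29% hold the miR-155-5p match and 11.2% the miR-146 match, so a match is a description and not evidence of regulation. Messenger RNA was not measured in these samples.

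The abundant arms, miR-146b-5p and miR-155-5p, were each several fold higher in the ADM library, while the other 4 rows held few reads in either library. Levels are given as the share of the reads that the authors took as 100%, or in RPM (reads per 1000000 reads), with reads recovered from the percent values. A library held 755193 such reads in BM and 790617 in ADM. With 1 library per medium there is no replicate check and no test: each difference is between these libraries, and the 95% intervals cover counting error only. In such bulk RNA, fewer cells that express a miRNA and less of it per cell cannot be told apart.

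miR-146b-5p, the arm that carries the miR-146 seed, had 2022 reads in BM and 8973 in ADM. That is a share of 0.268% in BM (exact Clopper-Pearson interval 0.256 to 0.280%) and of 1.13% in ADM (1.11 to 1.16%), or 2677 and 11349 RPM. The intervals of the libraries do not overlap, and the ADM share was 4.24 times that in BM (exact conditional interval 4.04 to 4.45). It moved from rank 48 of the 628 listed miRNAs in BM to rank 21 in ADM. On the scale log2((ADM + 1)/(BM + 1)) in RPM, used below for all comparisons across miRNAs, its ratio was 2.08.

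miR-155-5p, the guide arm of miR-155, was counted 277 times in BM and 1586 times in ADM. Its share was 0.0367% in BM (0.0325 to 0.0413%) and 0.201% in ADM (0.191 to 0.211%), or 367 and 2006 RPM. Again the intervals lie apart, with an ADM share 5.47 times that in BM (4.81 to 6.24; log2 ratio 2.45). Its rank was 111 in BM and 48 in ADM.

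**Figure D1:**
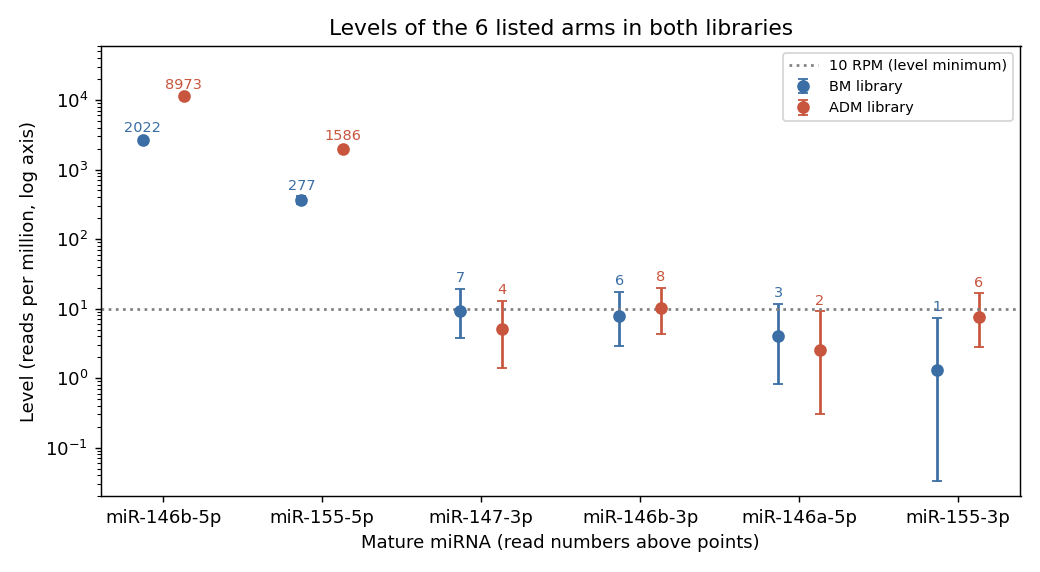
Level of each of the 6 rows in RPM (log axis) in the BM (blue) and ADM (red) library, with exact 95% counting intervals as bars, read numbers above the points and the 10 RPM minimum dotted. miR-146b-5p and miR-155-5p stand far above the other 4 rows in both libraries and are higher in ADM, while the bars of the other 4 overlap between the libraries.

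miR-146a-5p, the paralogue usually named as the NF-kB-induced one, had 3 reads in BM and 2 in ADM, which is 3.97 and 2.53 RPM. Both values lie at or under the floor of 3 reads, so no fold is given. It is also the row most open to misassigned reads, since it differs from the far more abundant miR-146b-5p at 2 bases. How the authors' mapping treated mismatches is not given, and the part of such reads in these 5 was not tested.

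miR-147-3p, the miR-147 row, was at 9.27 RPM in BM, from 7 reads, and at 5.06 RPM in ADM, from 4 reads. Its ADM share was 0.546 times that in BM, with an interval of 0.117 to 2.15 that holds 1. Neither direction could be told at this depth.

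The passenger arms were rare. miR-146b-3p had 6 reads in BM and 8 in ADM, a ratio of 1.27 (0.388 to 4.45). miR-155-3p had 1 read in BM and 6 in ADM, a ratio of 5.73 (0.695 to 264). Both intervals hold 1. Together, the 4 rare rows had 17 reads in BM and 20 in ADM. All 6 rows summed to a share of 0.307% in BM (0.294 to 0.319%) and 1.34% in ADM (1.31 to 1.36%).

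The order of levels was miR-146b-5p, then miR-155-5p, then the 4 rare rows, in both libraries. Counting intervals separate the first from the second and the second from the rest. Among the rare rows the order was miR-147-3p, miR-146b-3p, miR-146a-5p and miR-155-3p in BM, but miR-146b-3p, miR-155-3p, miR-147-3p and miR-146a-5p in ADM. Their intervals overlap in each library, so neither order is beyond counting error.

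To set these against all miRNAs, rows with a mean of at least 10 RPM over both libraries were classed by whether ADM and BM differed at least 2-fold, with the pseudocount of 1 RPM. By this rule miR-155-5p and miR-146b-5p were higher, the other 4 rows fell under the minimum and were not classed, and of all 337 miRNAs above the minimum 36 (10.7%) were higher and 69 (20.5%) lower, 31.2% in all. miR-155-5p and miR-146b-5p were each above 10 RPM in BM alone, so neither passed only through its level in ADM. By ratio, miR-155-5p stood at rank 5 and miR-146b-5p at rank 7 of the 337. Among the 72 miRNAs with a mean of at least 1000 RPM, of which 5 (6.94%) were called higher, they had ranks 1 and 2. At this higher minimum miR-155-5p, with 367 RPM in BM and 2006 in ADM, passed only through ADM. Its rank there is thus a description and no support. Over all 337 the median log2 ratio was -0.02, with quartiles of -0.81 and 0.50.

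**Figure D2:**
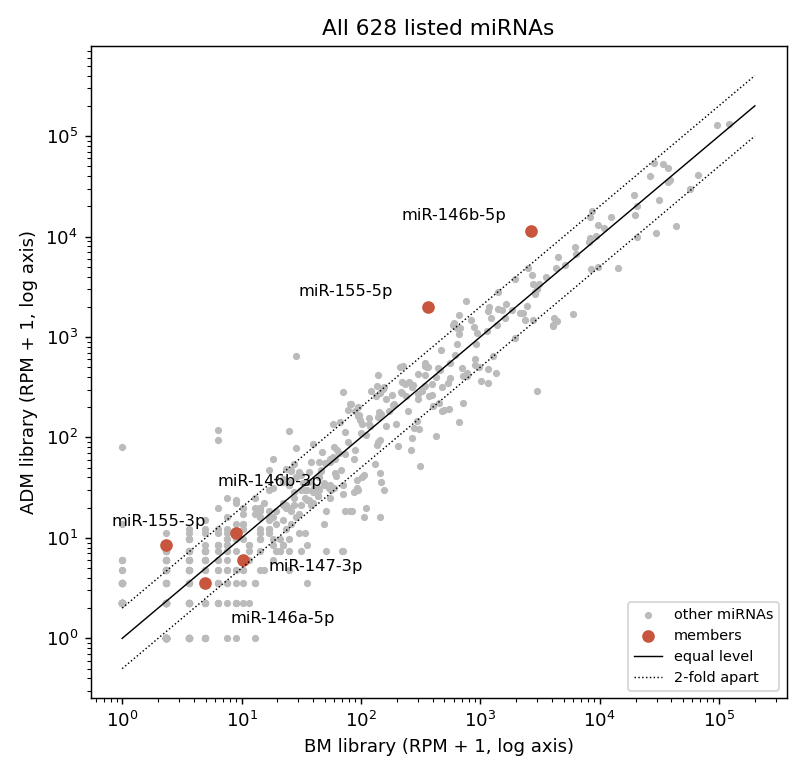
Level of all 628 listed miRNAs in BM (horizontal) and ADM (vertical), as RPM + 1 on log axes, with the 6 rows in red, equality as a solid line and 2-fold differences dotted. miR-155-5p and miR-146b-5p lie above the upper 2-fold line in a range of levels where few other points do. The other 4 rows sit among the low counts, and of these miR-155-3p, with 1 read in BM and 6 in ADM, also lies above that line.

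Ratios within a library do not depend on how the libraries were scaled. Reads of miR-146b-5p were 7.30 times those of miR-155-5p in BM (6.44 to 8.31) and 5.66 times in ADM (5.36 to 5.97). The ADM ratio was 0.775 times the BM ratio (exact conditional interval 0.674 to 0.889), so miR-155-5p differed between the libraries by more than miR-146b-5p did, beyond counting error. The absolute ratio between different miRNAs also holds their unequal capture in library preparation, which cancels only in the comparison of libraries.

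Of the reads with the miR-146 seed, miR-146b-5p supplied 99.9% in BM (99.6 to 99.97%) and 99.98% in ADM (99.92 to 99.997%). With miR-146a-5p at 3 and 2 reads, whether the balance of the paralogues differed between the libraries was not detectable. Grouped by seed over the 516 rows with a RefSeq sequence, the miR-146 seed took rank 27 of 438 seeds in BM and rank 17 in ADM. The miR-155-5p seed, which none of the other rows among these 516 carries, took ranks 72 and 29.

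Both hairpins were read almost wholly from the 5p arm. For miR-155 there were 277 reads of 5p per read of 3p in BM (49.3 to 10980) and 264 in ADM (121 to 721), so the arm ratio in ADM was 0.954 times that in BM (0.0207 to 7.91). For miR-146b the arm ratio was 337 in BM (155 to 919) and 1122 in ADM (569 to 2599), which differ 3.33-fold (0.951 to 10.95). Each interval holds 1, and a shift in arm use was not detectable at this depth for either hairpin.

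**Figure D3:**
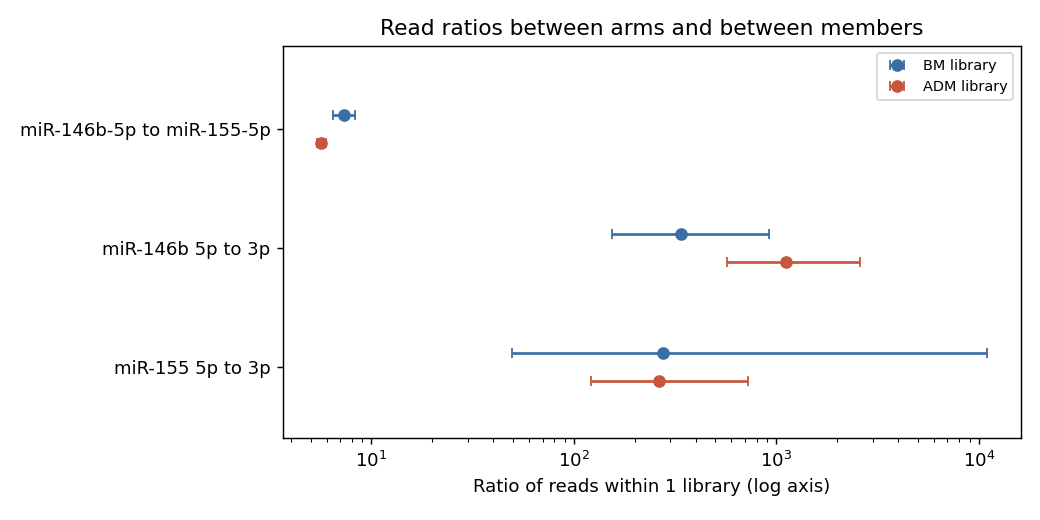
Ratio of reads within a library (log axis) for 3 pairs of rows, in BM (blue) and ADM (red), with exact 95% counting intervals. The libraries' intervals lie apart for miR-146b-5p to miR-155-5p and overlap for both arm pairs.

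The rows nearest in pattern all had smaller ratios than the arm they were set beside. With miR-155-5p at rank 5 and miR-146b-5p at rank 7 of 337 by ratio, few rows could have had larger ones. Likeness was measured as the distance between rows in log2(RPM + 1) over the 2 libraries, among non-members with a mean of at least 10 RPM. The nearest to miR-155-5p were miR-98-5p (distance 0.895; 456 and 1094 reads), miR-93-5p (0.903; 504 and 1315 reads) and miR-210-3p (0.929; 447 and 1029 reads). These 3 were 2.20 to 2.49 times higher in ADM, which is less than for miR-155-5p. For miR-146b-5p the nearest were let-7b-5p (distance 1.13), let-7g-5p (1.23) and miR-151-3p (1.31), with ratios of 1.40, 1.92 and 1.28.

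Other miRNAs reported to respond to Toll-like receptor or NF-kB signalling, or to act on it, mostly differed by less than 2-fold, as did most of all miRNAs. Of 22 such names, 20 had rows, 41 in all, and 33 arms were above the minimum. Among these 33, 1 was higher (against 10.7% of all miRNAs) and 5 were lower (against 20.5%). The other 27 differed by less than 2-fold, while of all miRNAs 31.2% differed by at least 2-fold. Their log2 ratios had a median of -0.44 beside -0.02 over all 337, and 13 of the 33 were above 0. Both arms of a hairpin count as separate rows here. The list does not separate miRNAs reported to rise from those reported to fall, so these values give no direction of the pathway.

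The most abundant of these arms was miR-21a-5p, which many stress and growth signals induce, whose log2 ratio was 0.42, from 73384 reads in BM to 102897 in ADM. It was followed by miR-99b-5p, encoded beside let-7e and miR-125a, with 42870 and 23708 reads (-0.92), and by miR-199a-3p, counted in a single row with miR-199b-3p, with 23921 and 18443 (-0.44). The highest ratio belonged to miR-210-3p, a hypoxia-induced miRNA, with 447 and 1029 reads (1.14), the only arm of the list called higher. At the other end was miR-221-5p, with 412 and 150 reads (-1.52). The other 4 lower arms, which were picked for naming on their values, were miR-125b-5p (-1.44), miR-222-5p (-1.44), miR-222-3p (-1.42) and miR-125a-5p (-1.07).

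**Figure D4:**
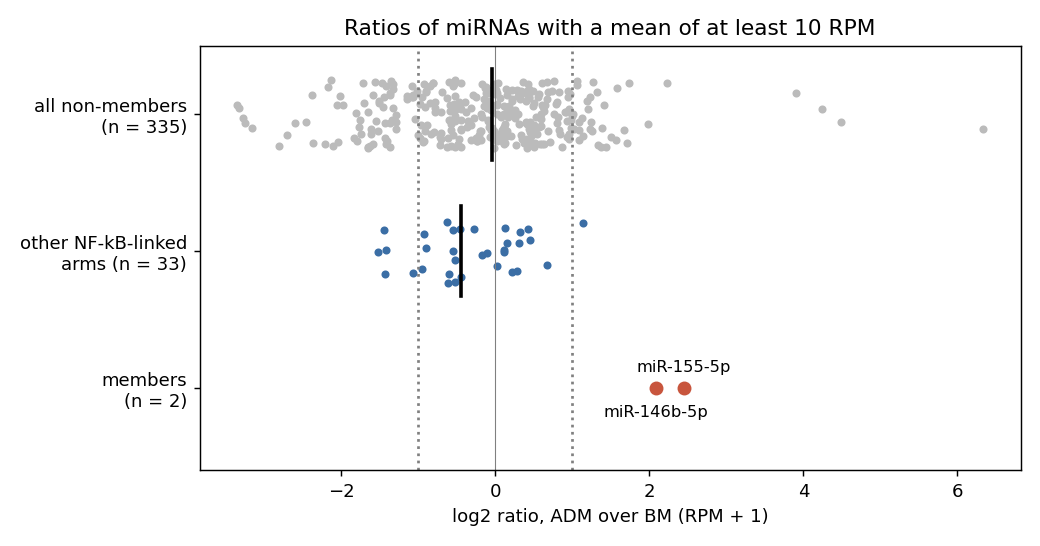
log2 ratio of ADM over BM for miRNAs with a mean of at least 10 RPM: the 335 that are not members (grey), the 33 NF-kB-linked arms among them (blue) and miR-146b-5p and miR-155-5p (red). Black bars are medians and dotted lines mark 2-fold differences; miR-146b-5p (2.08) and miR-155-5p (2.45) lie beyond the highest NF-kB-linked arm (1.14).

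Because immune cells are a known source of miR-155 and miR-146, markers of other cell types were read beside these results. Of 7 haematopoietic marker names, only miR-150-5p, with 1 read in BM and 3 in ADM, and miR-451a, with 0 and 1, had a row. The table analysed here lists no miR-142, miR-142a, miR-144, miR-223 or miR-511. The summed haematopoietic reads were 1 in BM and 4 in ADM. No listed miRNA has 0 reads in both libraries, so a name without a row may stand for 0 reads or for no measurement. With a row for 2 of 7 names, the part of such cells in the result was not tested. Of endothelial miR-126, the 5p arm was also higher in ADM, with 61 and 168 reads (log2 ratio 1.38). For miR-126-3p, with 27 and 35 reads (0.30), the ratio was 1.24, and its interval of 0.728 to 2.13 holds 1. The sum of both arms was 2.20-fold higher in ADM (1.71 to 2.86), and the part of miR-126 in the result was not tested. Of the 5 muscle names, all had rows, 7 in sum, with 2320 reads in BM and 247 in ADM. Their summed share in ADM was 0.102 times that in BM (0.0888 to 0.116). miR-133a-3p held 2266 and 231 of these reads (log2 ratio -3.36), and both muscle rows above the minimum, of which it is 1, were called lower. The part of the muscle miRNAs in the result was not tested either. The 3 epithelial rows had 3 and 1 reads in sum. Mesenchymal markers, the class that FAPs belong to, had 11 rows, all above the minimum, which summed to 7.49% in BM and 8.61% in ADM. That order rests on miR-143-3p, with 21636 and 42301 reads. Without it, left out after its values were seen, the other 10 rows summed to 4.62% in BM and 3.26% in ADM. Of the 11 rows 4 had a log2 ratio above 0, 1 was called lower and 0 higher, with a median of -0.29.

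In the authors' deposited table, the ratio of ADM to BM was 4.24 for miR-146b-5p, 5.47 for miR-155-5p and 5.73 for miR-155-3p, at ranks 23, 15 and 10 of the 628 miRNAs. The rank of miR-155-3p there rests on 1 read in BM and 6 in ADM.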

How the data were processed

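Per the labels' protocols, small RNA came from a mirVana extraction, the Illumina TruSeq small RNA kit served for library preparation, and a gel band of 147 bp was selected before MiSeq sequencing. The authors deposited mature miRNA levels as percent of reads. Per the file headers they came from miRanalyzer; its version and its handling of multi-mapping reads are stated in none of the sources used here. The submitters' processing notes name mm10. A second deposited table, in which 0 stands as 0.5 read, adds the authors' ratio of ADM to BM and its log2, headed ln2.

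Dividing each percent by the lowest nonzero one of its column gave whole numbers (tolerance 0.001), taken as reads; 1 read is 1.32 RPM in BM and 1.26 in ADM. RPM is the percent times 10000. Intervals are exact at 95% (scipy 1.17.1) and cover counting error only, since 1 library per medium leaves no replicate error. Reads carry no molecular identifiers, so copies of 1 molecule count as separate reads and the intervals may be too narrow. Calculations were tested on simulated data. Named miRNAs are all members, miRNAs with a shared seed, the 3 nearest patterns, of the NF-kB list the 3 most abundant arms and those with the highest and lowest ratio, and markers of other cell types above 0, of which the mesenchymal and the rarer muscle and epithelial ones are given in sum. Alternatives were other scalings, pseudocounts, minimums and fold thresholds. The members and lists were chosen with earlier results of these data known.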

Additional observations from a re-analysis of the deposited data

How the results depend on the processing

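miR-155-5p and miR-146b-5p were called higher in ADM under all 7 alternatives of scaling, pseudocount, minimum and fold threshold. With ratios of 5.47 and 4.24 and means of 1186 and 7013 RPM, the alternatives of minimum and fold threshold could not change these calls. Without a minimum miR-155-3p was called too. The trimmed mean of M values shifts all log2 ratios by -0.10, and miR-146b-5p then had 1.98, outside its counting interval; over 5 alternatives miR-155-5p ranged from 2.35 to 2.51 and miR-146b-5p from 1.98 to 2.15. Called miRNAs numbered 131 higher and 158 lower without a minimum, 21 and 29 with a minimum of 100 RPM, 75 and 104 at 1.5-fold, and 12 and 35 at 3-fold, as fewer or more rows qualify. Of the NF-kB-linked arms 3 were higher and 8 lower without a minimum, 2 and 11 at 1.5-fold, and 0 and 0 at 3-fold; with a minimum of 100 RPM their median was -0.19. The summed mesenchymal share in ADM was 1.15 times that in BM, but 0.704 times without miR-143-3p, an alternative chosen after seeing the data. The other 65 of 82 alternatives stayed within limits of 1.5 times for counts, 0.25 for the list's median and the counting interval for ratios. For the 4 rare rows these intervals are too wide to serve as a check. With a pseudocount of 10 RPM the log2 ratio of miR-155-3p fell from 1.89 to 0.64 and still lay within its interval. The 65 also include the count of members called lower, which was 0 under each setting. No paired analysis was possible because each medium has 1 library. Depth limits the 4 rare rows, for which no direction could be told.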
